A study of Mus musculus with 2 samples.

Results

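The genes of the mitochondrial ribosomal proteins were compared between SoNar-high and SoNar-low leukaemia cells of the mouse. Members were the genes with a symbol of the form Mrpl (large subunit) or Mrps (small subunit) and a number, matched to non-control probes through the RefSeq accession of each probe. This gave 77 genes with 99 probes, 49 Mrpl and 28 Mrps, out of 20618 genes with a symbol on the array. Membership rested on names alone and on no measured value, though earlier results of these data were known when the part was chosen.

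The cells were B-ALL cells (B-cell acute lymphoblastic leukaemia) of mouse bone marrow, taken at 8 weeks of age and sorted by the F405/F488 fluorescence ratio of SoNar, a sensor of the cytosolic NADH/NAD+ ratio. RNA of the SoNar-high population and of the SoNar-low population was hybridised to 1 one-colour Agilent array each, and the sample titles call them N-myc-high and N-myc-low. Strain, genotype, the way the leukaemia was started and the number of animals behind each sort are not given in the sources used here. With 2 arrays there was no replicate and no test, so each difference below is 1 array against 1 array, and, since per the file headers the arrays were scanned on different days, scan day and population cannot be told apart.

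Mitochondria make a handful of respiratory chain subunits from their own genome, on ribosomes of their own. The RNA of these mitoribosomes comes from mitochondrial DNA, while all their proteins are encoded in the nucleus, made in the cytosol and imported. The small subunit binds the mRNA and decodes it, and the large subunit forms the peptide bond and feeds the new protein into the inner membrane. Some of the proteins have bacterial homologues and others are particular to mitochondria.

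Gene names do not always give the place of a protein. Mrps30 and Mrps18a sit in the large subunit of the assembled mitoribosome, and Mrps36 is better known as an adaptor of the 2-oxoglutarate dehydrogenase complex. Mitoribosomal proteins whose genes fall outside the name pattern are Dap3, Ptcd3, Chchd1 and Aurkaip1 of the small subunit and Gadd45gip1 of the large one, as well as Mrps18c.

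Promoters are shown for members at both ends of the comparison: the highest member of all (Mrps16), a large-subunit gene near the top (Mrpl58), and the 3 lowest (Mrpl32, Mrps5 and Mrpl1). Each is the 150 bases before the most upstream transcript start in RefSeq, assembly GRCm38.p6, written 5′ to 3′ on the gene's strand. Capitals mark an ETS-type motif (CCGGAAG) in Mrpl58 and the NRF1 motif in Mrpl32.
Mrps16, chr14:20393635-20393784, minus strand: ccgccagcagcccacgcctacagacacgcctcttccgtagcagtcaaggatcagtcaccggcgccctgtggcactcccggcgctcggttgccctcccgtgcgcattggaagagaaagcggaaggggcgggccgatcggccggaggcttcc
Mrpl58, chr11:115403602-115403751, plus strand: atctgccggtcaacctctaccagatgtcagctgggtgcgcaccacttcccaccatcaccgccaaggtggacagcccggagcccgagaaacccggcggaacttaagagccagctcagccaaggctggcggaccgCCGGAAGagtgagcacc
Mrpl32, chr13:14613038-14613187, minus strand: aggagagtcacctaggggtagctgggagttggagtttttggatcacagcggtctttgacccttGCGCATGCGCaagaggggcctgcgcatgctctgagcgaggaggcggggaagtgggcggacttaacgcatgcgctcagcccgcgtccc
Mrps5, chr2:127587276-127587425, plus strand: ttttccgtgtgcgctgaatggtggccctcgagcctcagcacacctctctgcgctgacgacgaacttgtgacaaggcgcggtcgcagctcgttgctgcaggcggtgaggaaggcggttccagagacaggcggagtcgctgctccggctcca
Mrpl1, chr5:96209965-96210114, plus strand: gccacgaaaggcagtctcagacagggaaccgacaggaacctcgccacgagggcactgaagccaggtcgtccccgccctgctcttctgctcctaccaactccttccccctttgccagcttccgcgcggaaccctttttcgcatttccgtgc

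The ETS-type motif of Mrpl58 began 17 bases before the transcript start, and the NRF1 motif of Mrpl32 began 87 bases before its start. Both strands of each gene's windows, 250 bases before to 50 after a start, were searched for exact matches of 4 motifs. CCGGAAG was in 25 of 74 member windows (33.8%), against 8.86% of all 32851 windows. The NRF1 motif, as capitalised above, was in 3 member windows (4.05%, against 0.971%), AAGATGGCG, the core of a YY1 motif, in 8 (10.8%, against 1.40%), and the E-box CACGTG in 6 (8.11%, against 7.15%). The windows covered 68 of the 77 members, no motif contains another, and a match is a run of letters, not a bound site.

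Array-wide, 44.8% of SoNar-high spots and 72.9% of SoNar-low spots were well above background. The 75th percentile of the processed signal, to which each array was scaled, was 409 intensity units for SoNar-high and 470 for SoNar-low, so scaled differences lie 0.20 (log2) above those of the raw units. The only error the arrays give is that between spots: over 193 probes printed more than once the difference between the arrays had a median SD of 0.15. Of 13 B-lineage markers, 10 were well above background on both arrays, while Igll1, Rag1 and Rag2 were on neither. The summed scaled signal of the 13 was 1.32 times as high for SoNar-high as for SoNar-low. Markers of other cells were present and unequal. The same ratio was 0.835 for 10 neutrophil genes (10 seen in each population), 0.641 for 8 monocyte and macrophage genes (4 seen in SoNar-high, 7 in SoNar-low), 0.439 for 7 T and NK genes (4 and 6) and 0.134 for 7 lung genes (1 and 7). Gene by gene the neutrophil list had a median difference of -0.53, with 8 of 10 at or below 0 and 2 above. The ratio was 1.70 for 7 erythroid genes (4 and 6), although the median difference of the 4 measured in both was -1.02. Hemgn (0.89) made up most of that sum, with 22791 of 23487 units in SoNar-high and 14153 of 15909 in SoNar-low cells. The others measured in both, Hba-a1, Ermap and Hbb-bt, were at -1.82, -1.61 and -0.42. The ratio was 1.21 for 10 brain genes (8 and 8), but 5 of the 7 measured in both were at least 2-fold higher in SoNar-high cells. Their median difference was 2.15, while Snap25, one of the brightest, was at -1.04. The brain and lung lists were included because earlier results of these data showed their genes apart. Their values therefore repeat what led to their choice and are no separate support. The part of these cells in the values below was not tested, and in sorted bulk RNA fewer cells of a type cannot be told apart from less RNA per cell.

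Nearly every mitoribosomal protein gene was seen in both populations. Of the 77 members, 76 had a probe well above background on both arrays, against 51% of all genes. The exception was Mrpl21, a large-subunit protein with a bacterial homologue, whose 1 probe read 10.4 units in SoNar-high and 15.5 in SoNar-low cells, too dim to call on either array. On the scaled log2 scale, as a mean of both arrays, the median level was 2.53 for members and 0.50 for all measured genes, and members ran from -1.33 (Mrpl35) to 4.88 (Mrpl57). Probe brightness depends on the probe, so these levels do not rank the genes by RNA. Mrpl57 read 13033 units in SoNar-high and 12786 in SoNar-low cells (a difference of 0.23), and Mrpl35, the dimmest, 197 and 154 units in the same order (0.55). Of the small subunit Mrps21 was the brightest and Mrps2 the dimmest, and the probes of Mrps2 gave -0.14 and -0.09.

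Differences between the populations were small. On the log2 scale, SoNar-high minus SoNar-low after scaling, the 76 members ran from -1.13 to 0.99 with a median of 0.30, where all 10517 genes measured on both arrays had a median of 0.22. At least 2-fold different were 2 members, Mrpl1 and Mrps5 (2.63%), against 6.79% of all genes. Both were lower in SoNar-high cells, as were 4.38% of all genes, and 0 were higher, against 2.41% of all genes. At 1.5-fold 14 members (18.4%) were higher, against 20.4% of all genes, and 4 (5.26%) were lower, against 10.2%. In each of these counts the members' share was below that of all genes, but only by a few genes. Within 1.5-fold lay 58 of the 76 members, against 7303 of all 10517 genes. Scaled to the median of each array instead, which moves every gene by 0.57, 32 members (42.1%) were at least 2-fold higher, against 32.2% of all genes, and 0 lower.

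**Figure D1:**
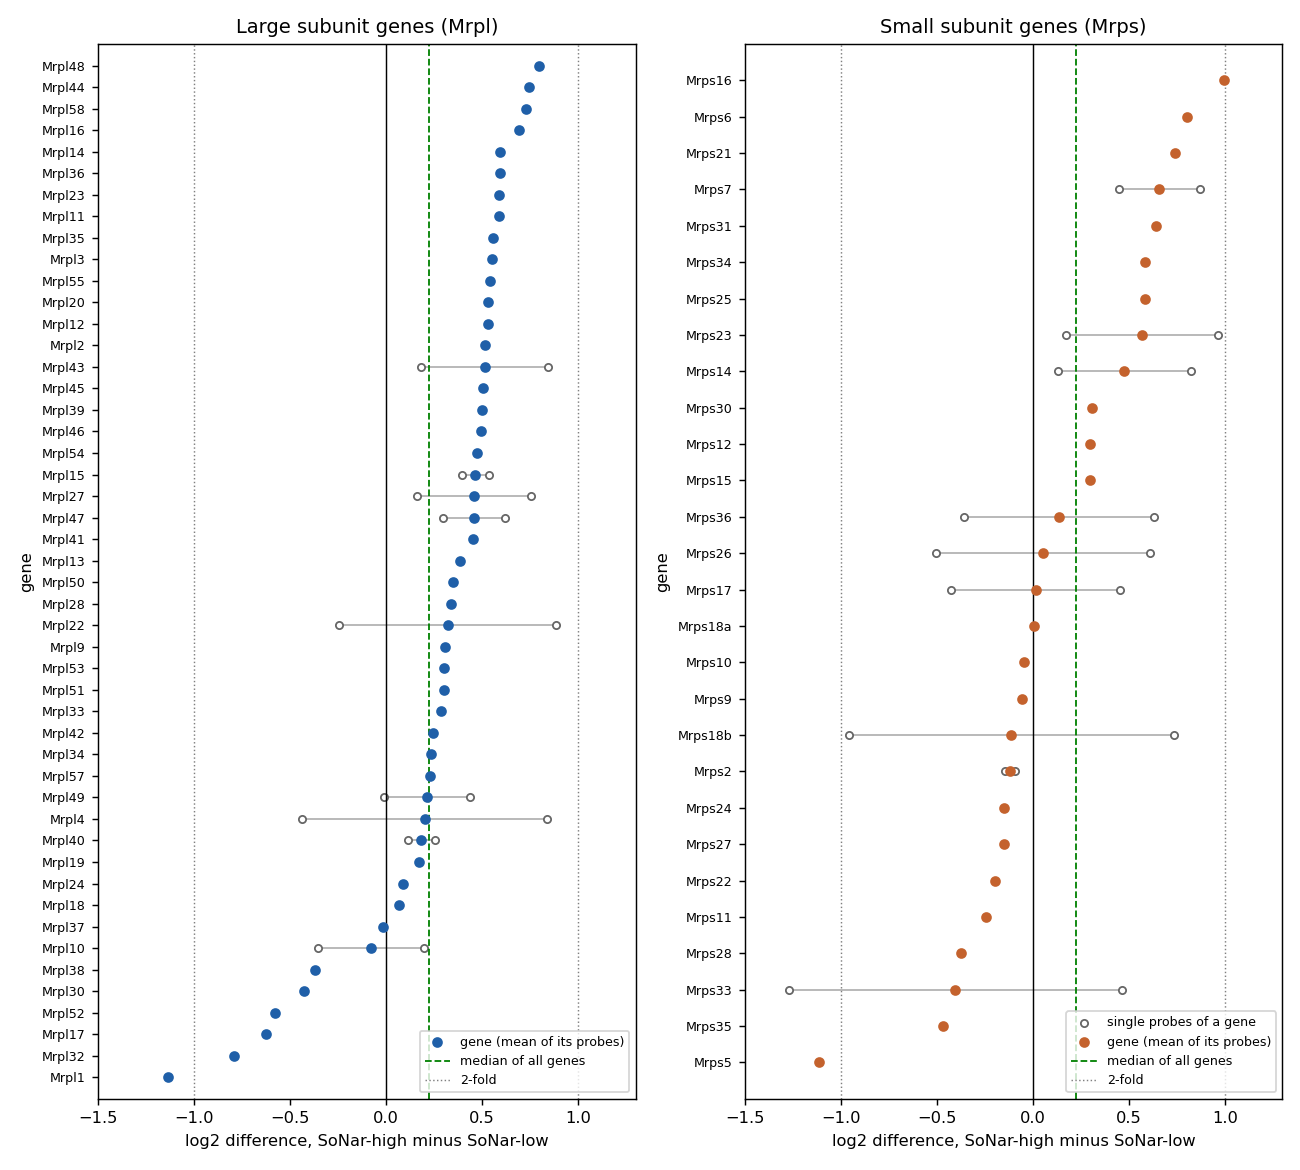
Log2 difference of each measured member, SoNar-high minus SoNar-low after scaling to the 75th percentile, for 48 Mrpl genes (left) and 28 Mrps genes (right); filled points are genes, open points single probes of genes with 2 measured probes, the dashed line is the median of all genes (0.22) and dotted lines mark 2-fold. Mrpl1 and Mrps5 lie past the lower 2-fold line, and the middle 50% of Mrpl genes lie between 0.20 and 0.53, those of Mrps genes between -0.15 and 0.57.

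The median of the large-subunit genes was slightly higher than that of the small-subunit genes. The 48 measured Mrpl genes had a median of 0.37 (middle 50% from 0.20 to 0.53), and the 28 Mrps genes one of 0.03 (middle 50% from -0.15 to 0.57), so the medians were 0.33 apart. Above 0 lay 40 of 48 Mrpl genes and 16 of 28 Mrps genes, against 66.9% of all genes; above the median gene lay 34 and 12 of them, in the same order. The ranges overlapped (-1.13 to 0.80 for Mrpl and -1.11 to 0.99 for Mrps), the means were only 0.14 apart, and the highest member of all belonged to the small subunit. At least 1.5-fold higher were 8 Mrpl genes (16.7%) and 6 Mrps genes (21.4%), against 20.4% of all genes. At least 1.5-fold lower were 3 (6.25%) and 1 (3.57%) in the same order, against 10.2% of all genes. Sorted by place in the assembled ribosome, with Mrps30 and Mrps18a counted as large and Mrps36 left out, the members' medians were 0.33 apart. That sorting left out the small-subunit proteins of other names: Ptcd3 (0.90), Chchd1 (0.72), Dap3 (0.51), Mrps18c (0.43) and Aurkaip1 (0.03). Each of these lay above the small-subunit median of that sorting (0.02). Also left out was Gadd45gip1 of the large subunit (0.20), which lay below the large-subunit median of that sorting (0.34). Including these genes would narrow the gap, by an amount that was not computed. With the brightest probe of each gene alone the members' medians were 0.15 apart (0.45 for Mrpl and 0.30 for Mrps).

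Within the large subunit the highest genes were Mrpl48, Mrpl44, Mrpl58, Mrpl16 and Mrpl14. Mrpl48, a protein of the central protuberance, read 5267 units on the SoNar-high array and 3483 on the SoNar-low array, a difference of 0.80 (1.74-fold). Mrpl44, which carries an RNase III-like domain and lies by the exit tunnel, read 3237 and 2219 units in the same order (0.75), and Mrpl58, a peptidyl-tRNA hydrolase that became part of the large subunit, 4486 and 3108 units (0.73). For each of these the SoNar-high reading was the higher one already in raw units. Mrpl16, a core protein near the peptidyl transferase centre, stood at 0.69 (1317 units in SoNar-high and 936 in SoNar-low cells) and Mrpl14, which lies at the subunit interface, at 0.59 (1197 and 912 units).

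At the other end Mrpl1, whose bacterial counterpart forms the mobile stalk by the exit site of tRNA, was the lowest member. It read 168 units on the SoNar-high array and 425 units on the SoNar-low array, a difference of -1.13 or 2.20-fold lower, by 1 probe. Mrpl32, a protein whose processing by an inner-membrane protease precedes ribosome assembly, read 391 and 777 units in the same order (-0.79). Mrpl17 of the exit tunnel (751 and 1330 units, -0.62), Mrpl52 (6069 and 10410 units, -0.58) and Mrpl30 (3675 and 5693 units, -0.43) followed. Each of these rested on 1 probe printed as 1 spot, so none has an error of its own, and Mrpl30 was above 0 (0.14) with median scaling. Mrpl1 was past 2-fold by a narrow margin: it was at -0.96 with normexp background correction and at -0.97 in the authors' deposited log2 values.

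The parts of the large subunit had medians between 0.31 and 0.48. The 5 proteins of the L7/L12 stalk, which recruits translation factors, and its base had a median of 0.47, from Mrpl10 (-0.08, its 2 probes at -0.36 and 0.20) to Mrpl11 (0.59; 8156 units in SoNar-high and 6242 in SoNar-low cells). Mrpl12, the stalk protein itself, read 13662 and 10880 units in the same order (0.53). The 8 proteins of the exit tunnel, where the new chain leaves, had a median of 0.48; Mrpl23 was at 0.59 and Mrpl45, which docks the ribosome at the inner membrane, at 0.50 (2826 units in SoNar-high and 2294 in SoNar-low cells), while Mrpl17 above was the only one below 0. The central protuberance, 8 genes, had a median of 0.38, between Mrpl38 (-0.37) and Mrpl48, and Mrpl40 stood at 0.18 with probes of 0.12 and 0.25. Proteins with a bacterial homologue (29 genes, median 0.38) and proteins particular to mitochondria (21 genes, Mrps30 and Mrps18a included by position, median 0.31) lay together.

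Small-subunit genes held both the highest member and one of the 2 past 2-fold. Mrps16, which binds the small-subunit RNA and whose loss in humans causes a respiratory chain defect, read 5859 units on the SoNar-high array and 3382 units on the SoNar-low array, a difference of 0.99 (1.99-fold) that falls just short of 2-fold. Mrps6 of the platform read 1479 and 973 units in the same order (0.81), and Mrps21 13089 and 9004 units (0.74). Mrps7, a protein of the head, was at 0.66 with probes of 0.45 and 0.87, and Mrps31 at 0.64. Mrps23 was at 0.57, with probes of 0.97 and 0.18. Mrps16, Mrps6, Mrps21 and Mrps31 each had 1 probe, so of the 5 highest small-subunit genes only Mrps7 had a pair of probes, both higher.

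Mrps5, a protein of the mRNA entry channel, was the brightest of the 4 members at least 1.5-fold lower. It read 3573 units on the SoNar-high array and 8896 units on the SoNar-low array, a difference of -1.11 or 2.17-fold lower. Mrps28 (3630 and 5403 units in the same order, -0.37) and Mrps11 (819 and 1118 units, -0.25) were the next lowest small-subunit genes with a bacterial homologue, both above 0 with median scaling, and Mrps12, a protein of the decoding centre, stood at 0.30 (2109 and 1971 units). The 16 small-subunit genes with a bacterial homologue, Mrps18c included, had a median of 0.16, with 8 above and 8 below the median gene. The 11 particular to mitochondria, Mrps36 included, had a median of 0.05, from Mrps35 (-0.47) to Mrps31 (0.64); Mrps34, needed for a stable small-subunit RNA, was at 0.59 and Mrps25 at 0.58. The 2 proteins with a small-subunit name and a large-subunit place were on the middle ground, Mrps30 at 0.31 (5335 units in SoNar-high and 4962 in SoNar-low cells) and Mrps18a at 0.01 (4434 and 5076 units).

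**Figure D2:**
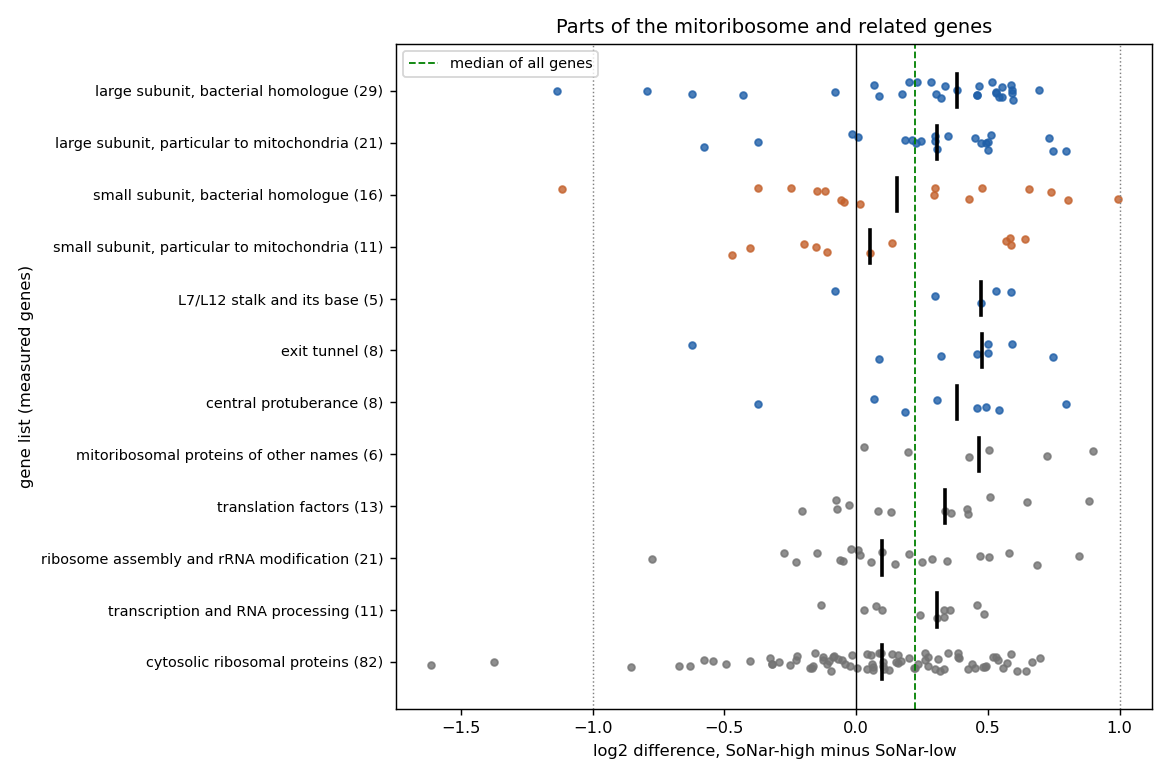
Log2 difference, SoNar-high minus SoNar-low, of the measured genes in each part of the mitoribosome (large subunit blue, small subunit orange) and in related lists (grey), with the number of measured genes in brackets; black bars are medians and the dashed line is the median of all genes. The parts of the large subunit have medians from 0.31 to 0.48, and the 2 groups of the small subunit have medians of 0.16 and 0.05.

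For 3 members the error between spots was measured directly. Mrpl50, printed as 10 spots, read 1217 to 1827 units on the SoNar-high array and 1045 to 1481 on the SoNar-low array; the difference was 0.35 with a standard error of 0.08 over spots, and its second probe also gave 0.35. Mrpl34, also 10 spots, read 1981 to 3865 units on the SoNar-high array and 2313 to 2918 on the SoNar-low array (0.23, standard error 0.11), and the spots of the arrays overlapped. Mrps35, with 6 unflagged spots, read 1068 to 2541 units on the SoNar-high array and 2282 to 2803 on the SoNar-low array. Its difference of -0.47 had a standard error of 0.24 and became -0.27 with the outlier spots kept, so its place among the low members depends on which spots are read. For a single spot the SD of the difference was 0.24 for Mrpl50, 0.35 for Mrpl34 and 0.59 for Mrps35. Each was above the median SD of 0.15 over the 193 probes printed more than once. These errors describe a slide, not cells or animals.

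The probes of a gene often disagreed: over 19 members with 2 measured probes they were a median of 0.66 apart, against 0.43 over all genes with such a pair. Of these 19 members 9 (47.4%) had probes of opposite sign, against 42.7% of all 2021 genes with 2 measured probes, and in 5, against 286 of the 2021, the probes were over 1 log2 unit apart (Mrps33, Mrps18b, Mrpl4, Mrpl22 and Mrps26). Mrps33, whose gene value of -0.40 is the third lowest of the small subunit, had a bright probe at 0.46 (8223 units in SoNar-high and 6864 in SoNar-low cells) and a dim one at -1.27 (121 and 336 units). Mrps18b stood at 0.74 by its bright probe (6000 and 4141 units in the same order) and -0.96 by its dim one (93.5 and 209 units). The gene value of each averages opposite readings.

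In the other 3 the brighter probe was again the higher one. Mrpl4 gave 0.84 and -0.44, Mrpl22 0.89 and -0.24, and Mrps26 0.61 and -0.50, the brighter probe first. Over the 19 genes the brighter probe gave the higher value in 13, by a median of 0.45 over all 19. Over all 2021 genes with 2 measured probes it did so in 66.1%, against 68.4% of the members, by a median of 0.22. The dimmer probe was the higher one in 6 genes (Mrpl10, Mrpl15, Mrpl50, Mrps2, Mrps14 and Mrps36). Among them Mrps36 gave -0.36 by its brighter and 0.63 by its dimmer probe, and Mrps14 0.13 and 0.82. By annotation the 2 probes of Mrps33 belong to different RefSeq transcripts. Those of Mrps18b, Mrpl4, Mrpl22 and Mrps26 are annotated, pair by pair, to the same transcript. Whether such probes read different transcripts was not tested.

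**Figure D3:**
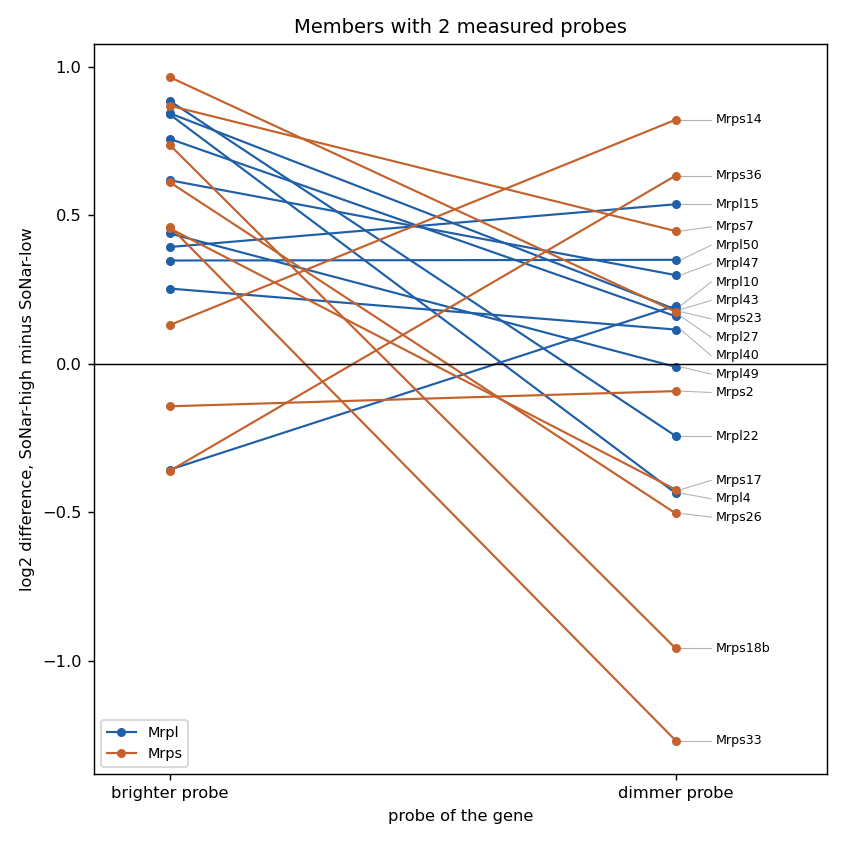
Log2 difference, SoNar-high minus SoNar-low, of the brighter (left) and the dimmer probe (right) of the 19 members with 2 measured probes, joined by gene; Mrpl in blue and Mrps in orange. In 13 genes the line runs down from the brighter to the dimmer probe, most steeply for Mrps33 (0.46 and -1.27) and Mrps18b (0.74 and -0.96).

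Probes left out as dim were checked too. The second probe of Mrpl41, a large-subunit protein particular to mitochondria, read 25.4 units in SoNar-high cells, not well above background, and 186 units in SoNar-low cells. It was at least 3.48-fold lower in SoNar-high cells, taken against the lowest signal well above background there. The other Mrpl41 probe read 2926 units in SoNar-high and 2460 in SoNar-low cells (0.45), so the gene has a reading in each direction. Second probes of Mrpl39 and Mrps25 were too dim to call in SoNar-high cells and gave no fold.

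The level of a probe went with its difference across the array, and more weakly so among the members. With all genes in 4 level bins of near equal size, the medians from the dimmest to the brightest bin were -0.03, 0.14, 0.31 and 0.40. Members were mostly bright, with 47 of 76 in the brightest bin and 22 in the one below. In the brightest bin 30 Mrpl genes had a median of 0.46 and 17 Mrps genes one of 0.30, against 0.40 for all genes; in the next, 13 Mrpl genes had 0.32 and 9 Mrps genes -0.04, against 0.31. In both bins the Mrpl median was just above that of all genes and the Mrps median below it, whereas in the second dimmest bin 4 Mrpl genes had -0.29 and 2 Mrps genes 0.18, against 0.14. Across the 76 members, which share both arrays and are not independent, level and difference had r = 0.21 (rho = 0.17), and across all 10517 genes r = 0.26 (rho = 0.31), given as descriptions.

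**Figure D4:**
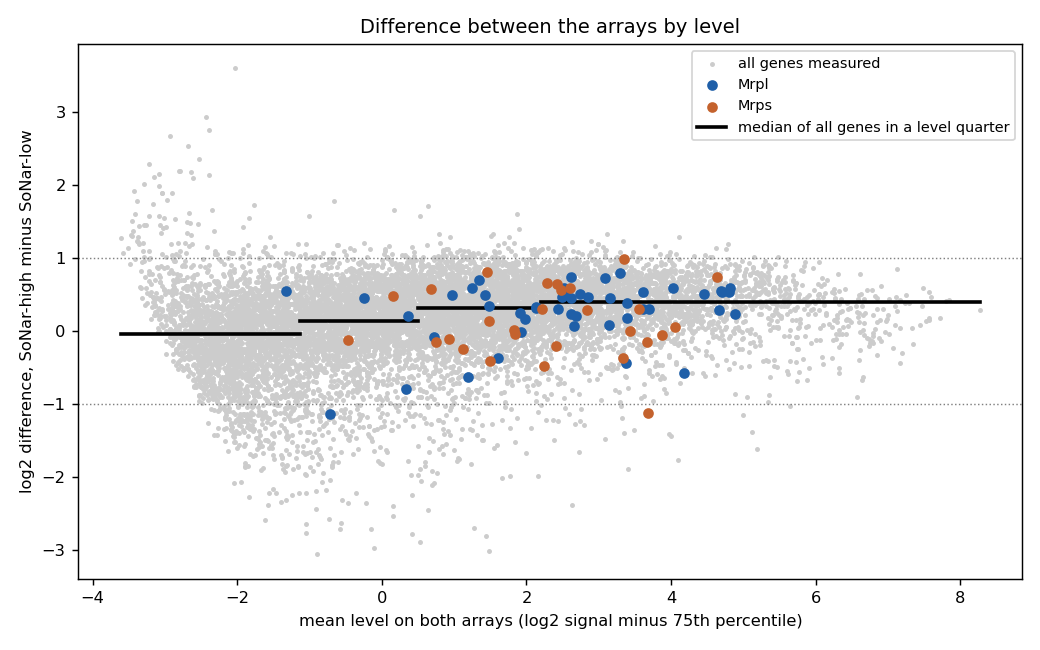
Log2 difference, SoNar-high minus SoNar-low, against the mean scaled level on both arrays for all 10517 measured genes (grey), Mrpl genes (blue) and Mrps genes (orange); black bars are the medians of all genes in 4 level bins, from -0.03 to 0.40, and dotted lines mark 2-fold. Of the 76 members 47 lie in the brightest bin, and Mrps5 is the bright member below the lower dotted line.

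Of 11 alternatives 3 move every gene by one constant and cannot change the gap between the subunits. Under the other 8 the Mrpl median was above the Mrps median by 0.15 to 0.33, while the place of each against the median gene moved. With the scaling used here Mrpl genes lay 0.14 above the median gene and Mrps genes 0.19 below it. The Mrpl median was under the median gene with quantile normalization (-0.05), loess on the level (-0.0057) and the authors' deposited log2 values (-0.05), and the Mrps median was above it with the brightest probe of each gene (0.03).

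**Figure D5:**
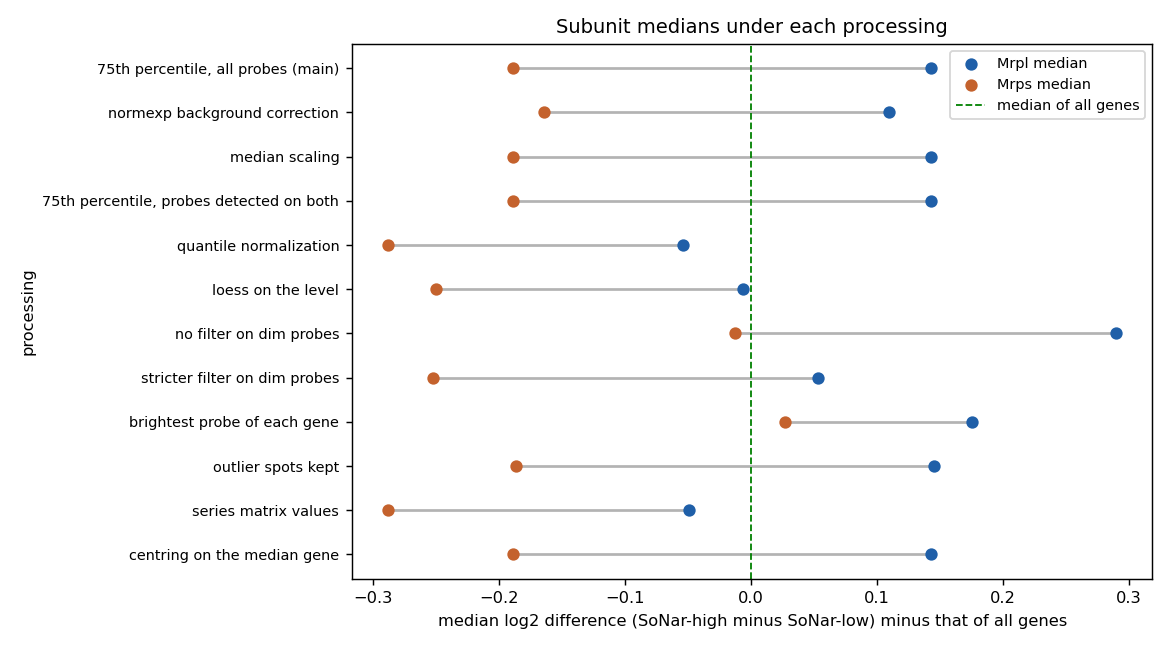
Median log2 difference, SoNar-high minus SoNar-low, of the Mrpl genes (blue) and Mrps genes (orange), each minus the median of all genes (dashed line at 0), under the scaling used here (top line) and 11 alternatives. Blue is right of orange under the 8 alternatives that could change the gap, the smallest (0.15) being for the brightest probe of each gene, and 3 lines (median scaling, percentile over detected probes, centring) keep the gap by construction, while blue falls just left of 0 with quantile normalization, loess and the series matrix values.

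Mitoribosomal proteins of other names were set beside the members. All 6 lay above 0, against 66.9% of all genes, with a median of 0.47. Past 2-fold were 0 of 6, against 6.79% of all genes. Ptcd3, a pentatricopeptide protein of the small subunit, read 9087 units on the SoNar-high array and 5599 on the SoNar-low array (0.90), and Chchd1 19833 and 13804 units in the same order (0.72). Dap3, a GTP-binding protein of the small subunit, was at 0.51 with probes of 0.41 and 0.60, and Mrps18c at 0.43. Gadd45gip1 (0.20) and Aurkaip1 (0.03, probes of -0.11 and 0.18) lay below the median gene.

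The rest of the mitochondrial gene expression machinery lay around the median gene. Of 48 listed genes 45 were measured, with a median of 0.20, 22 above and 23 below the median gene. Past 2-fold were 0 of the 45, against 6.79% of all genes. The 13 measured translation factors had a median of 0.34, from Mtrf1, a relative of the bacterial release factors (-0.21), to Mtfmt, which formylates the initiator methionine (0.89); Lrpprc, which holds mitochondrial mRNAs, was at 0.65 and the elongation factor gene Tufm at -0.03. The 21 measured genes of ribosome assembly and rRNA modification had a median of 0.10, with the rRNA methyltransferase gene Mrm1 at 0.85, the assembly GTPase gene Noa1 at 0.69 and Mterf4, which guides an rRNA methyltransferase to the large subunit, at -0.78. The 11 genes of transcription and RNA processing had a median of 0.31 and lay within 1.5-fold throughout, with the mitochondrial RNA polymerase gene Polrmt at 0.08 and the transcription and packaging factor gene Tfam at 0.33 (3 probes between -0.06 and 0.68).

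Ribosomal proteins of the cytosol, the counterpart set, had a median of 0.10 over 82 genes, 0.13 below the median gene. Above the median gene lay 29 and below it 53. At least 2-fold lower were 2 (2.44%), Rpl7a and Rps3a1, against 4.38% of all genes, and 0 were higher, against 2.41%. The cytosolic genes were far brighter than the members (median scaled level 6.23 against 2.53), and their many pseudogene copies make the probes uncertain. Their middle 50%, from -0.13 to 0.33, overlapped that of the Mrpl and of the Mrps genes.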

How the data were processed

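Each population was hybridised as Cy3-labelled RNA to 1 array. The deposited files give 1-colour intensity values; per the file headers the software was Agilent Feature Extraction 11.0.1.1, whereas the submitters' processing notes name 9.1. The processed signal was not scaled between arrays. The authors' deposited series matrix holds log2 values with the scanner's rank order (Spearman's rho 0.99996 for SoNar-high and 0.9998 for SoNar-low) and a median of 5.86 for each. The sources used here do not state its centring, and it served as an alternative.

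Control spots and outlier-flagged spots (190 of SoNar-high, 506 of SoNar-low) were left out and spots of a probe averaged. Values are log2 processed signal minus the 75th percentile of the array. Accessions without versions were matched to a RefSeq table of GRCm38.p6, which named 27115 of 39085 probes. The array design names build mm9, so probe positions are not given, and the only coordinates are those of promoters in RefSeq's own assembly, GRCm38.p6. A gene value averages the probes that passed the background call in both populations, and a call is a size of 2-fold with no p-value. Members, lists and motifs were chosen with earlier results of these data known. Named genes follow a rule: those past 2-fold by gene or probe or with only a bound, the 5 highest and lowest and the 3 brightest and dimmest of each subunit, those with probes over 1 log2 unit apart, and 12 set names. Others are given as members of a list or were chosen after their values were seen. On simulated data for this comparison (10517 genes, 3-fold changes, spot SD 0.11), 100 of 100 raised and 100 of 100 lowered genes were called, and 0 of 10317 others. A size of 3-fold lies well past the 2-fold call at that spot SD, so these counts check the computation alone. How often a 2-fold call is wrong on the real arrays was not tested. Computation used Python 3.11.15 (pandas 2.3.3, numpy 2.4.6, statsmodels 0.14.6) and R 4.3.3 (limma 3.58.1, for normexp on median spot signals).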

Additional observations from a re-analysis of the deposited data

How the results depend on the processing

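Each population has 1 array, so no replicate could be left out. No paired analysis was possible because each population has 1 array. Signal over background limits the dim members. The median spot SD of 0.15 serves as a yardstick here, though the members printed several times had larger ones (0.24 to 0.59). Of 437 values of the 40 named members under 11 alternatives, 197 moved by less than 0.15, and 240 by more. In 37 of them, from 15 members, the sign turned, 8 with median scaling (Mrps28 at 0.19, Mrpl30 at 0.14); Mrps33 and Mrps18b stood at 0.46 and 0.74 by the brightest probe. Neither Mrpl1 nor Mrps5 turned. Median scaling moved every gene by 0.57 and put 32 members (42.1%, against 32.2% of all genes) at least 2-fold higher and 0 lower, with medians of 0.93 for Mrpl and 0.60 for Mrps. The 75th percentile over probes detected in both populations moved every gene by -0.30 and gave 0.070 for Mrpl and -0.26 for Mrps. Loess on the level gave 0.045 and -0.20 in the same order; centred on the median gene they were 0.14 and -0.19. The Mrpl median was 0.14 with quantile normalization and 0.17 in the series matrix. With the brightest probe of each gene the Mrps median was 0.30 and the gap between the subunits 0.15. Members at least 2-fold lower numbered 1 with normexp, against 240 of all 10517 genes, and 1 in the series matrix, against 358. The stricter filter, which drops Mrpl1, left 1 of 73 members, against 111 of 5729 genes. The number was 3 with the percentile over detected probes (Mrpl32 at -1.09), against 851 of 10517 genes. It was also 3 with centring (Mrpl32 at -1.01), against 742 of 10517. With no filter on dim probes it was 3 of 77, against 2542 of 20618 genes. With the scaling used here it was 2, against 461 of 10517. At a 1.5-fold threshold 14 members were higher and 4 lower, against 20.4% and 10.2% of all genes. With negative control spots as the background call, 1 member (Mrpl21) was dim in SoNar-high cells only, where the scanner's call gave 0. Of all genes past 2-fold, 35.4% were higher in SoNar-high cells; this share was 23.1% with normexp, 96.1% with median scaling, 6.69% with the percentile over detected probes, 47.1% with quantile normalization, 18.2% with loess, 56.0% with the stricter filter, 54.6% in the series matrix and 8.62% with centring. Chosen after seeing the data, genes with 1 measured probe gave a gap between subunits of 0.41. Chosen likewise, members sorted by place gave a gap of 0.33, without the proteins of other names, which would narrow it. Beyond what each alternative itself changes, the cause was not tested.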

Other observations

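Members were also compared by promoter motif, as values only. The 24 measured members with CCGGAAG in a promoter window had a median difference of 0.29 (SoNar-high minus SoNar-low, log2), and the 43 with a window but without it one of 0.35. The 8 members with AAGATGGCG had a median of -0.0039 and the other 59 one of 0.32, and the 4 with CACGTG had 0.52 against 0.30 for 63 without. The 3 with the NRF1 motif, Mrpl9, Mrpl32 and Mrpl39, stood at 0.30, -0.79 and 0.50.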
